A study of Mus musculus with 19 samples.

Results

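The comparison described here sets hepatic stellate cells (HSCs) kept in culture for 24 h against HSCs collected directly after isolation (0 h), to show which genes had changed by the end of the first day of in vitro activation. All samples were chosen by the culture time in their labels: 2 samples at 24 h and 2 at 0 h, which makes 4 of the 19 samples of a time course with 7 timepoints. HSCs were sorted by the ultraviolet fluorescence of their vitamin A from healthy male Balb/c mice of 23 to 24 weeks, with no treatment of the animals in either group. The 0 h fraction was never plated, whereas the other cells were sorted into collagen-coated wells with 10% fetal bovine serum, and their medium was changed after 3 h and after 24 h. Each sample stands for 2 technical repeats. The labels number the samples M1 to M3: the 0 h samples are M2 and M3, the 24 h samples are M1 and M2. M1 and M3 were isolated on one date and M2 on another, so that each timepoint holds 1 sample of each date. The labels do not say how many animals went into one isolation, and the p-values below measure the spread between samples, which may in part be technical. In such bulk samples, fewer cells of a type and less RNA per cell cannot be told apart.

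In the healthy liver, HSCs lie between hepatocytes and the sinusoidal endothelium, store vitamin A as retinyl esters in lipid droplets, and secrete factors that act on their neighbours. After liver injury, or when they are placed on plastic or a stiff substrate, they lose these stores, build a contractile cytoskeleton and in time deposit fibrillar collagen, which is called activation. Plating therefore serves as a model of activation, with the limit that it also removes the cells from their neighbours and exposes them to serum.

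Libraries were made from the 3′ ends of transcripts, and the deposited values are whole counts per gene. The 4 samples held 2073171 (0 h M3), 4466759 (0 h M2), 4116614 (24 h M1) and 6979382 (24 h M2) counts. Since only transcript ends were read, levels were not divided by gene length. Levels are TMM-scaled counts of each library brought to the same total (CPM). Sample values are always given as 0 h M2 and M3 against 24 h M1 and M2. The floor of detection was set at 3 counts, which is 1.51 CPM in the shallower 0 h sample and 0.644 CPM in the shallower 24 h sample, and this floor covers counting error only. A fold change against 2 samples at 0 counts is given as a lower bound against the floor of the shallower sample. A call required a fold change of more than 2 and an edgeR adjusted p under 0.1. Pearson's r was 0.844 between the 24 h samples and 0.768 between the 0 h samples. It was taken over the log2 CPM of genes that passed the filter on low counts, which are not independent. The 0 h pair holds the shallowest of the 4 samples, M3, and the part of depth in its lower r was not tested.

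At 24 h, most markers of the quiescent state were lower, and many genes of the actin cytoskeleton, amino acid supply, ribosome production and the p53 response were higher, while Col3a1 and Col1a2 were lower and Col1a1 was not called. Of 15138 genes tested, 856 were called higher (5.65% of those tested) and 584 were called lower (3.86%). The median log2 fold change was -2.73 among the lower genes and 1.90 among the higher ones, where genes with a group at 0 counts enter at their bound. In 1432 of the 1440 called genes the 24 h samples both lay on the same side of both 0 h samples, against 48.8% of all genes tested. These 1432 also had the same sign within each of the isolation dates, which follows from the lack of overlap and adds no further support. Higher genes made up 59.4% of the calls with TMM scaling, 48.2% with RLE size factors, 47.3% with DESeq2 and 71.5% with scaling by library size alone, and the balance between rises and falls moved with the scaling. RLE size factors moved the median log2 fold change of expressed genes by -0.22 and library size by 0.28. Of the calls, 332 higher and 219 lower genes were also called under each of 12 alternatives.

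**Figure D1:**
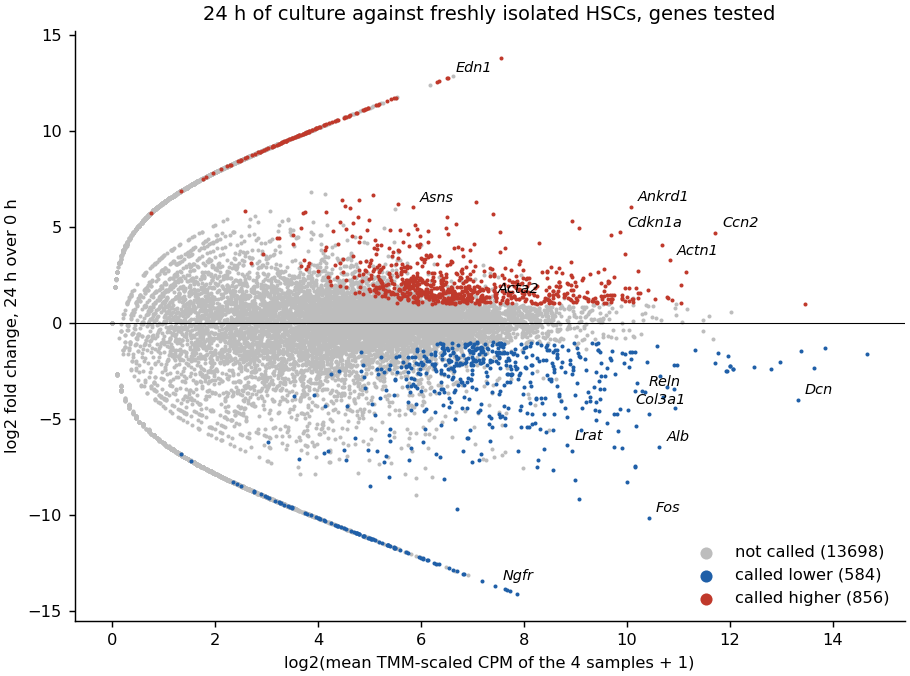
Each point is a gene tested, with its mean level over the 4 samples on a log2 scale (x axis) and its log2 fold change of 24 h over 0 h (y axis). The outer arcs hold genes at 0 counts in both samples of one timepoint, whose fitted fold change has no meaning beyond its sign. The 856 genes called higher (red) lie above the line of no change and the 584 called lower (blue) below it, among 13698 genes not called (grey).

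Lists of 541 genes in 26 pathways or gene families were compared with the share called over all genes. By symbol, 539 of them could be matched, 516 passed the filter on low counts, and 129 were called higher and 84 lower. Of the 23 members below the filter, 21 were listed at 0 counts in all 4 samples, among them Pparg, Met, Plin4 and Dbp. The median log2 fold change over all genes tested was 0.00. Per list, the first 2 genes and the 2 called members with the largest change among the others are named by rule; other members are named after their values had been seen, to show the kinds of genes in a list. Among the 26 lists, the highest share called higher was that of the ATF4 targets with tRNA synthetases (23 of 25 tested), and the highest share called lower that of the quiescence markers with secreted factors (17 of 22).

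**Figure D2:**
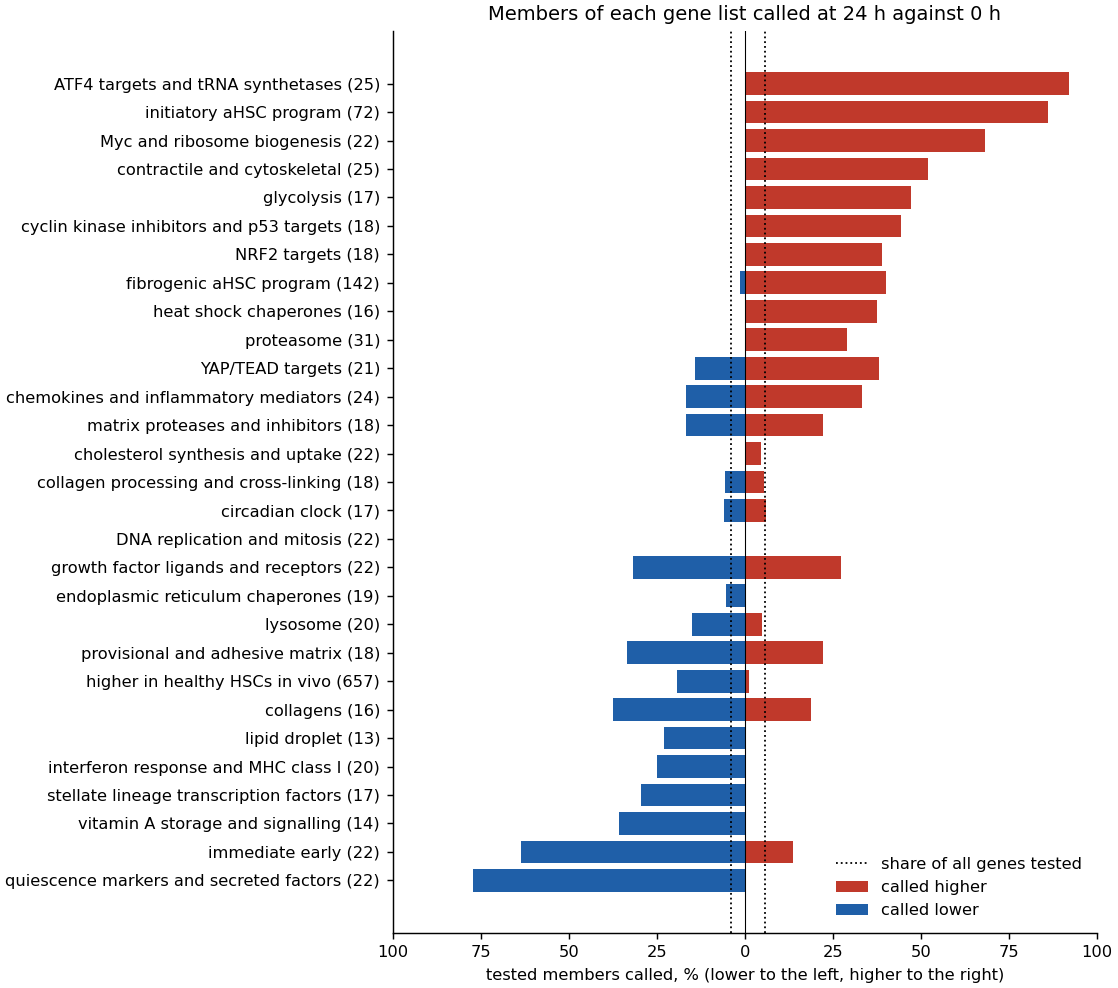
Bars give the percent of each list's tested members (number in brackets) called higher (right, red) or lower (left, blue) at 24 h, and dotted lines the 5.65% and 3.86% over all genes tested. ATF4 targets, ribosome biogenesis, the cytoskeleton and p53 targets extend to the right, whereas quiescence markers, immediate early genes and vitamin A genes extend to the left.

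Transcripts of vitamin A storage were lower. Of 14 tested genes of the pathway 5 were called lower and 0 higher (median log2 fold change -2.06). Lrat, the enzyme that esterifies retinol for storage, was at 1074 and 735 against 10.3 and 11.4 CPM (log2 fold change -6.37, SE 1.10, adjusted p = 0.0012). The samples of each timepoint lay close together and the timepoints far apart. Aldh1a1, which oxidises retinal to retinoic acid, fell from 271 and 270.1 to 50.6 and 53.6 CPM (log2 fold change -2.37, adjusted p = 0.0095). Rara, a retinoic acid receptor, fell from 75.2 and 46.7 to 7.51 and 15.3 CPM (log2 fold change -2.41, adjusted p = 0.0629). The call of Rara was lost in 5 of 12 alternatives. Rxra, a common partner of nuclear receptors, was lower as well (219 and 171 against 61.6 and 54.1 CPM, log2 fold change -1.75, adjusted p = 0.0104).

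Among 13 tested lipid droplet genes 3 were lower and 0 higher (median log2 fold change -0.38). Plin2, the main coat protein of the droplets in these cells, was at 208 and 198 against 48.1 and 55.1 CPM (log2 fold change -1.98, SE 0.53, adjusted p = 0.0284). G0s2, an inhibitor of the triglyceride lipase ATGL, fell from 358 and 288 to 9.87 and 5.01 CPM (log2 fold change -5.44, SE 0.89, adjusted p = 0.000751). Lipoprotein lipase, Lpl, fell from 531 and 557 to 118 and 167 CPM (log2 fold change -1.93, adjusted p = 0.000149). ATGL itself, Pnpla2, was at 64.2 and 0 against 44.4 and 68.1 CPM and was not called, with 1 of the 0 h samples at 0 counts.

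Of the quiescence markers and secreted factors, 17 of 22 were called lower, 0 higher, and the median log2 fold change was -4.54 with genes at 0 at their bound. Reln, an extracellular glycoprotein known from neuronal migration and a marker of quiescent HSCs, was at 2382 and 2220.0 against 142 and 248 CPM (log2 fold change -3.56, SE 0.32, adjusted p = 2.63e-06). Ngfr, the p75 neurotrophin receptor, was at 428 and 259 against 0 and 0 CPM, which is at least 534-fold lower, adjusted p = 1.79e-05. Angptl6, a secreted angiopoietin-like protein, was at 343 and 236 against 0 and 0 CPM (at least 449.6-fold lower, adjusted p = 0.000218). Neither gene had a count in a 24 h sample, so that depth sets these bounds. Hgf, the growth factor of hepatocytes, fell from 1478 and 1056 to 53.6 and 56.9 CPM (log2 fold change -4.52, SE 0.31, adjusted p = 2.71e-07). Ecm1, a secreted regulator of latent TGFβ, fell from 3122 and 3095 to 201 and 231 CPM (log2 fold change -3.85, adjusted p = 6.65e-08). The collectins Colec10 and Colec11, soluble lectins of complement activation, fell as well (log2 fold changes -9.17 and -7.46, adjusted p = 0.000144 and 6.48e-05). Gfap, the glial filament protein often used as an HSC marker, was at 17.3 and 0 against 0 and 0 CPM and was not called. Desmin (Des) was at 125 and 120 against 76.6 and 68.3 CPM and was not called either.

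**Figure D3:**
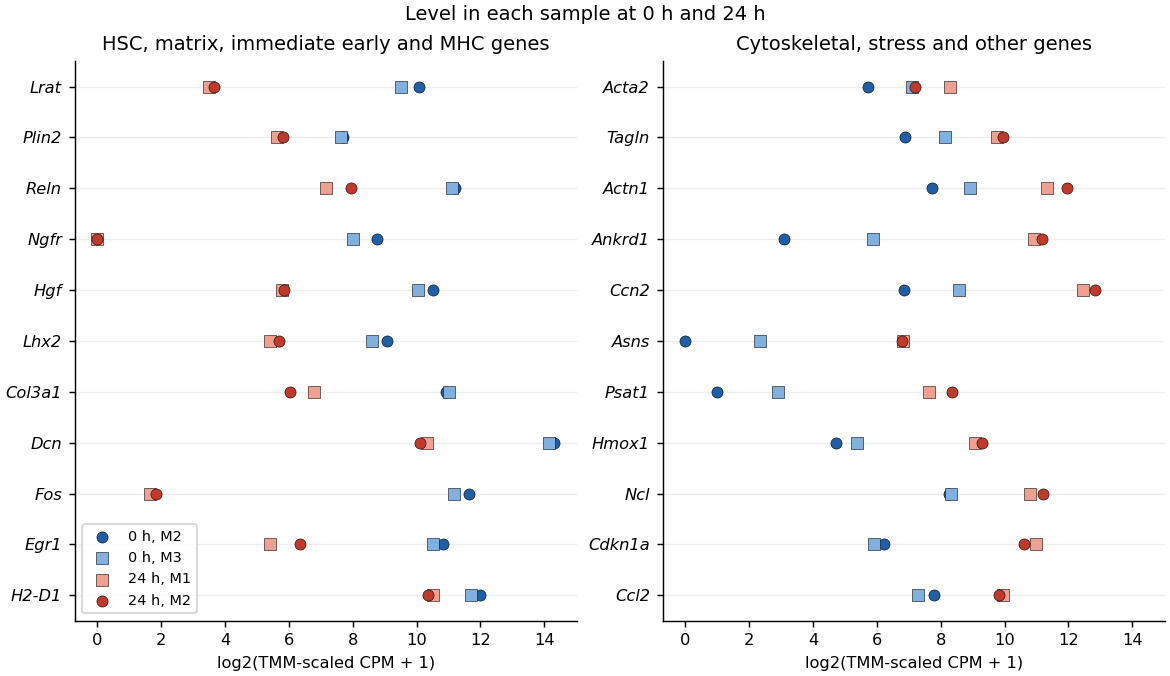
Points are the single samples (circles M2, squares M3 at 0 h and M1 at 24 h; blue 0 h, red 24 h), with the level as log2(CPM + 1) on the x axis. For Lrat, Ngfr, Fos and Dcn the blue points lie to the right of the red ones, for Actn1, Ccn2, Asns and Cdkn1a to the left, and for Acta2 the nearest samples, 138 CPM at 0 h and 144 CPM at 24 h, almost touch.

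The list of stellate lineage transcription factors also holds factors that are not particular to this lineage, such as Irf1 and Vdr. Of its 17 tested members 5 were lower and 0 higher (median log2 fold change -1.81). Lhx2, a LIM homeobox factor that restrains HSC activation in the mouse, was at 537 and 391 against 41.8 and 50.5 CPM (log2 fold change -3.33, SE 0.44, adjusted p = 0.000103). Hand2 was at 531 and 495 against 37.98 and 30.7 CPM, without overlap of the timepoints, and was not called (log2 fold change -3.90, SE 1.74, adjusted p = 0.234). Nr2f2, a nuclear receptor of mesenchymal and venous cells, fell from 607 and 597 to 118 and 64.3 CPM (log2 fold change -2.72, adjusted p = 0.00168). Irf1, an interferon-inducible factor, fell from 983 and 602 to 57.7 and 35.4 CPM (log2 fold change -4.09, adjusted p = 2.35e-05).

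The contractile and cytoskeletal list moved the other way. Of 25 tested members 13 were called higher and 0 lower (median log2 fold change 1.27), against 5.65% of all genes. Actn1, the actin crosslinker α-actinin of non-muscle cells, was at 210.4 and 480.1 against 2572 and 4015 CPM (log2 fold change 3.26, SE 0.35, adjusted p = 1.53e-05). Tagln, the smooth muscle protein SM22, was at 118 and 278 against 859 and 978 CPM (log2 fold change 2.22, SE 0.42, adjusted p = 0.00268). Tpm4 and Tpm1, tropomyosins that coat actin filaments, rose as well (log2 fold changes 2.79 and 2.18, adjusted p = 5.14e-07 and 2.2e-05). The cytoplasmic actins Actb (7169.7 and 7826 against 15050 and 15197 CPM) and Actg1 (640.1 and 589 against 1739 and 1882 CPM) were called higher. Actb changed by just over 2-fold (log2 fold change 1.01, adjusted p = 0.00035), and 6 of 12 alternatives did not call it. Fhl2, a LIM protein of actin-dependent transcription, was at 0 and 0 against 23.4 and 29.3 CPM (at least 17.5-fold higher, adjusted p = 6.15e-05). Acta2, the smooth muscle actin that serves as the classical marker of activated HSCs, was at 51.7 and 138 against 314 and 144 CPM and was not called (log2 fold change 1.28, SE 0.47, adjusted p = 0.127). In 5 of 12 alternatives it was called higher, among them those without 0 h M3 or without 24 h M2. At 96 h Acta2 stood at 3169 ± 856 CPM (SD, n = 3), above both 24 h samples (log2 fold change of 24 h over 96 h -3.79, adjusted p = 0.00045). Myl9, the regulatory light chain of smooth muscle myosin, was at 64.4 and 153 against 91.6 and 54.6 CPM and was not called either (adjusted p = 0.622).

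RefSeq promoter windows (build GRCm38.p6, 250 bases before to 50 after the start of transcription, the first listed per gene) were found for 20 of the 25 contractile genes. The CArG box, to which serum response factor binds, was searched on both strands and found in 5 of them (25%, namely Cnn2, Myl9, Actg1, Vcl and Fhl2), against 1.57% of 27025 windows. Of the 5, Cnn2, Actg1 and Fhl2 were called higher, and the bases before their start sites are shown with the box in capitals, 5′ to 3′:
Cnn2, chr10:79988500-79988599, plus strand: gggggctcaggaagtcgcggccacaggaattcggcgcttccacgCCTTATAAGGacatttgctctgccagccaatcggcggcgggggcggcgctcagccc
Actg1, chr11:120348496-120348595, minus strand: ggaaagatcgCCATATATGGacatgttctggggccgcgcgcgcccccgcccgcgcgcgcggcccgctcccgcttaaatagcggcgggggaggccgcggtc
Fhl2, chr1:43196762-43196861, minus strand: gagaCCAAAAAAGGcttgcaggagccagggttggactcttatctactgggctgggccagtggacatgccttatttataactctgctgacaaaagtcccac
The boxes begin 56, 90 and 96 bases before the start site. Myl9 and Vcl, which carry the box as well, were not called. Here and in the searches below, a match of letters is a description of the window, not evidence of binding. Lists put together as targets of a factor can hold its motif more often by that choice alone.

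Targets of YAP and TEAD, the transcriptional pair that responds to cell spreading and stiffness, were called in both directions, 8 higher and 3 lower of 21 tested (median log2 fold change 0.85). Ankrd1, a nuclear ankyrin-repeat protein and a standard YAP readout, was at 7.52 and 58.2 against 1926 and 2322 CPM (log2 fold change 6.06, SE 0.73, adjusted p = 4.97e-05). Ccn2, the matricellular protein CTGF, was at 114 and 384 against 5632 and 7272 CPM (log2 fold change 4.70, SE 0.53, adjusted p = 2.31e-05). Ccn1 rose from 590.5 and 297 to 1193 and 1895 CPM (log2 fold change 1.80, adjusted p = 0.0199). Dock5, an activator of Rac, was at 0 and 0 against 29.4 and 25.1 CPM (at least 18.1-fold higher, adjusted p = 0.0243). Fjx1 was at 0.501 and 1.00 against 15.9 and 16.3 CPM (log2 fold change 4.45, adjusted p = 0.0325). Both of its 0 h values lay below the floor of 3 counts, so the size of this fold is uncertain. The lower members were Igfbp3, which binds insulin-like growth factors, Ccdc80 and Rbms3 (log2 fold changes -4.34, -2.99 and -2.90, adjusted p = 0.0461, 0.000603 and 3.4e-05). Ccn2 was above its 96 h level of 1352 ± 535 CPM (SD, n = 3) (log2 fold change of 24 h over 96 h 2.25, adjusted p = 0.0067). Ankrd1 was not called against 96 h (adjusted p = 0.978).

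TEAD factors bind GGAATG. The motif, on either strand, was found in 7 of 15 matched promoters of these targets (46.7%), against 14.6% of all windows, and 4 of the 7 (Ankrd1, Ccn1, Axl and Crim1) were called higher. Ankrd1 and Ccn1, both widely used as YAP readouts, are shown with the motif in capitals:
Ankrd1, chr19:36119845-36120094, minus strand: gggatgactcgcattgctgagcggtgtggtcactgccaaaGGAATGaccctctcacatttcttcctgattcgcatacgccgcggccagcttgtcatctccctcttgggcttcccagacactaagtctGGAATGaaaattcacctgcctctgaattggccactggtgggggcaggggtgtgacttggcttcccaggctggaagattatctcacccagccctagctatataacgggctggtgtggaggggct
Ccn1, chr3:145649986-145650105, minus strand: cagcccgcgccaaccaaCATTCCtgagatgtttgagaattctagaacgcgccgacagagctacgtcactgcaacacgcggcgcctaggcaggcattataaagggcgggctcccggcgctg
Ankrd1 holds it 210 and 123 bases before the start site, and Ccn1 holds its reverse complement 103 bases before the start.

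Fibrillar collagens Col3a1 and Col1a2 had fallen by 24 h, and the basement membrane collagens Col4a1 and Col4a2 had risen. Of 16 tested collagen genes 6 were lower and 3 higher (median log2 fold change -2.88). Col1a1 was at 161 and 447 against 334 and 219.6 CPM, with overlapping samples, and was not called (log2 fold change -0.13, SE 0.40, adjusted p = 0.958); its sign changed with the scaling. Col3a1 was at 1932 and 2067 against 109 and 64.3 CPM (log2 fold change -4.53, SE 0.45, adjusted p = 7.58e-06). Col1a2 was at 566 and 696 against 82.2 and 86.3 CPM (log2 fold change -2.91, adjusted p = 0.000298). Col14a1, a fibril-associated collagen, fell from 2452 and 2056 to 64.6 and 44.4 CPM (log2 fold change -5.37, SE 0.31, adjusted p = 3.58e-08). Col6a1 fell from 193 and 227 to 12.02 and 7.33 CPM (log2 fold change -4.44, adjusted p = 0.0137). The rising members were Col4a1 (929 and 1093 against 2198 and 2864 CPM), Col4a2 (406 and 518 against 1122 and 1110.3 CPM) and Col5a2 (186 and 201 against 452 and 589.5 CPM). The first of these form the network of basement membranes, and Col5a2 is a minor fibrillar collagen. At 96 h Col1a1 stood at 1412 ± 218 CPM (SD, n = 3), above 24 h (log2 fold change of 24 h over 96 h -2.35, adjusted p = 0.004). Col3a1 was at 480.0 ± 53.5 CPM (SD, n = 3), also above 24 h (log2 fold change of 24 h over 96 h -2.48, adjusted p = 0.00255).

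Of the enzymes of collagen processing, 1 of 18 was higher and 1 lower (median log2 fold change 0.26). Both shares were near the 5.65% and 3.86% of all genes tested. Loxl2, a lysyl oxidase of cross-linking, was called higher (187 and 281 against 453 and 516 CPM, log2 fold change 1.05, adjusted p = 0.0157). P4ha1, a prolyl hydroxylase subunit, was called lower (169.5 and 159 against 71.2 and 89.99 CPM, log2 fold change -1.03, adjusted p = 0.0529). Both calls lay at the 2-fold limit and were lost in 6 and 7 of 12 alternatives. The collagen chaperone Serpinh1 was at 835 and 998 against 1562 and 1922 CPM (log2 fold change 0.93, adjusted p = 0.0872), without a call. Lox was at 5.27 and 12.6 against 11.4 and 11.96 CPM and was not called (log2 fold change 0.40, adjusted p = 0.934).

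In the non-collagen matrix, 4 of 18 tested genes rose and 6 fell (median log2 fold change -1.62). The rising members are adhesive or provisional components: Tnc, tenascin C of wound matrix, was at 15.5 and 53.2 against 825 and 1244 CPM (log2 fold change 4.94, SE 0.59, adjusted p = 4.04e-05). Vcan, the large proteoglycan versican, was at 0 and 0 against 46.1 and 48.2 CPM (at least 31.3-fold higher, adjusted p = 0.00877). Cd44, the hyaluronan receptor, was at 19.3 and 29.6 against 345 and 391.96 CPM (log2 fold change 3.92, adjusted p = 1.59e-05). Thbs1 was the fourth (log2 fold change 2.06, adjusted p = 0.0146). The falling members include the small proteoglycans of resting stroma. Dcn, decorin, fell from 20177 and 18182 to 1286 and 1099 CPM (log2 fold change -4.01, SE 0.20, adjusted p = 1.35e-08). Bgn and Lum, biglycan and lumican, fell too (log2 fold changes -2.22 and -5.43, adjusted p = 1.01e-05 and 0.000167). Fibronectin, Fn1, was at 238 and 345 against 70.4 and 66.3 CPM (log2 fold change -2.09, SE 0.46, adjusted p = 0.00875). Eln, elastin, was at 70.5 and 58.8 against 0 and 0 CPM (at least 100.4-fold lower, adjusted p = 0.0694), with a call in 7 of 12 alternatives.

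Among matrix proteases and their inhibitors, 4 of 18 were higher and 3 lower (median log2 fold change 1.12). Plaur, the urokinase receptor, was at 0 and 3.01 against 60.9 and 119 CPM (log2 fold change 6.19, SE 1.06, adjusted p = 0.0011). Mmp13, a collagenase, was at 1.00 and 10.04 against 60.9 and 88.96 CPM (log2 fold change 3.91, SE 0.66, adjusted p = 0.000981). Timp3 was at 18.6 and 346 against 2210.1 and 3954 CPM (log2 fold change 4.09, SE 0.82, adjusted p = 0.00403), with 0 h samples that differed widely. Timp1 (6.77 and 13.6 against 65.01 and 29.95 CPM) and Mmp3 (0 and 3.01 against 57.5 and 24.8 CPM) lay above their 0 h samples without passing the test (log2 fold changes 2.24 and 5.10, adjusted p = 0.344 and 0.109). Those called lower were the aggrecanases Adamts4, Adamts5 and Adamts1 (log2 fold changes -3.75, -1.96 and -1.05, adjusted p = 0.0234, 0.0635 and 0.0912). This count of 3 fell to 0 without 0 h M2 or without 24 h M1 and to 1 without 0 h M3.

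AP-1, the dimer of Fos and Jun proteins, binds TGANTCA. The motif occurred in 4 of 12 matched promoters of this list (33.3%), all metalloproteinases or the urokinase receptor, against 7.93% of 27025 windows. Of the 4, Mmp13 and Plaur were called higher. The 80 bases before each start site are shown to let the 4 be compared, with the motif in capitals:
Mmp13, chr9:7272434-7272513, plus strand: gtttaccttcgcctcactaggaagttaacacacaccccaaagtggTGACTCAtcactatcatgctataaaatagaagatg
Plaur, chr7:24462403-24462482, plus strand: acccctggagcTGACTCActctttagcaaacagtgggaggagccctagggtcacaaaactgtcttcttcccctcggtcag
Mmp3, chr9:7445742-7445821, plus strand: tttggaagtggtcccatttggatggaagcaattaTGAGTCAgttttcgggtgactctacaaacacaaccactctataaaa
Mmp10, chr9:7502262-7502341, plus strand: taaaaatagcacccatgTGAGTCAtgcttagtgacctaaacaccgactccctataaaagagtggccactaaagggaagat
In Mmp13 the motif begins 35 bases before the start, in Mmp3 46, in Mmp10 63 and in Plaur 69 bases. Mmp10 was at 2.01 and 0 against 32.6 and 19.5 CPM and was not called (adjusted p = 0.221).

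Several growth factor receptors fell and several ligands rose: 7 of 22 tested members were lower and 6 higher (median log2 fold change 0.01). Pdgfrb, the receptor through which platelet-derived growth factor drives HSC proliferation, was at 542 and 466 against 154 and 228 CPM (log2 fold change -1.40, SE 0.40, adjusted p = 0.0398). Pdgfra was at 393 and 266 against 63.3 and 108 CPM (log2 fold change -1.95, SE 0.31, adjusted p = 0.000566). Agtr1a, the angiotensin II receptor, fell from 648 and 459 to 10.5 and 17.6 CPM (log2 fold change -5.29, SE 0.66, adjusted p = 6.48e-05). The endothelin receptors Ednra and Ednrb and the TGFβ receptors Tgfbr3 and Tgfbr2 made up the other lower members (log2 fold changes -4.17, -3.09, -2.34 and -1.93, adjusted p = 0.000789, 1.21e-05, 0.000304 and 0.0993). All 6 higher members but Egfr are ligands. Edn1, the vasoconstrictor endothelin 1, was at 0 and 0 against 243 and 122 CPM (at least 121-fold higher, adjusted p = 0.00154). Markers of sinusoidal endothelial cells summed to 1326 and 880.2 CPM at 0 h and to 508 and 179 CPM at 24 h. The part of these cells in the level of Edn1 was not tested. Ereg and Hbegf, ligands of the EGF receptor, rose as well (log2 fold changes 4.73 and 3.32, adjusted p = 1.15e-07 and 0.000491). Inhba, the activin subunit, rose from 65.9 and 33.6 to 400.1 and 449 CPM (log2 fold change 3.08, adjusted p = 1.53e-05) and Tgfb3 from 9.78 and 11.05 to 87.1 and 86.6 CPM (log2 fold change 3.06, adjusted p = 0.0113). Tgfb1 was at 16.05 and 22.1 against 18.02 and 17.1 CPM and was not called (log2 fold change -0.12, adjusted p = 1).

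Immediate early genes, which respond to stress within minutes, were high in the freshly isolated cells and low after a day. Of 22 tested, 14 were lower and 3 higher (median log2 fold change -3.40). Fos was at 3189 and 2287 against 2.15 and 2.57 CPM (log2 fold change -10.15, SE 0.56, adjusted p = 3.35e-08). Egr1 was at 1833 and 1469.8 against 41.2 and 80.5 CPM (log2 fold change -4.76, SE 0.49, adjusted p = 1.04e-05). Jun was at 3651 and 2724 against 259 and 366 CPM (log2 fold change -3.35, adjusted p = 7.62e-07). Egr3 was at 9.28 and 7.03 against 0 and 0 CPM (at least 12.7-fold lower, adjusted p = 0.0774). Klf6 was higher (188 and 183 against 729 and 922 CPM, log2 fold change 2.15, adjusted p = 0.000335), as was Maff (50.1 and 17.1 against 99.3 and 100.9 CPM, log2 fold change 1.56, adjusted p = 0.0197). The last was Sphk1, a sphingosine kinase (0 and 0 against 31.5 and 21.1 CPM, at least 17.5-fold higher, adjusted p = 0.0162). Klf6, a zinc finger factor described in early HSC activation, was higher than at 96 h (175 ± 52.5 CPM (SD, n = 3), log2 fold change of 24 h over 96 h 2.24, adjusted p = 0.000332). Fos, with 14.3 ± 1.86 CPM (SD, n = 3) at 96 h, was lower (log2 fold change of 24 h over 96 h -2.57, adjusted p = 0.00312). AP-1 and CArG motifs were found in 0 and 1 of the 18 matched promoter windows of this list. The windows reach only 250 bases before the start site, and motifs farther away were not searched.

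Among chemokines and other inflammatory mediators, 8 of 24 were higher and 4 lower (median log2 fold change 0.75). Ccl2, which attracts monocytes, was at 220.2 and 154 against 982 and 905 CPM (log2 fold change 2.33, SE 0.33, adjusted p = 0.000211). Cxcl2 and Csf1, which act on neutrophils and macrophages, rose (log2 fold changes 2.64 and 2.64, adjusted p = 0.0146 and 0.000197). Cxcl5 was at 0 and 0 against 148 and 29.7 CPM (at least 58.99-fold higher, adjusted p = 0.0112). Lif was called with 1 of the 24 h samples at 0 counts (0 and 0 against 18.5 and 0 CPM; adjusted p = 0.0905), and 7 of 12 alternatives did not call it. Il6 was at 4.76 and 0 against 0 and 0 CPM and was not called. The lower members were Cxcl10, Socs3, Cebpd and Vcam1 (log2 fold changes -5.44, -5.22, -1.95 and -1.53, adjusted p = 0.000361, 0.0167, 0.0362 and 0.00181). Interferon-response and MHC class I genes were lower in 5 of 20 cases and higher in 0 (median log2 fold change -1.59). B2m, the invariant chain of MHC class I, was at 5672 and 4832 against 1438 and 2096 CPM (log2 fold change -1.57, SE 0.34, adjusted p = 0.0074). H2-K1 was at 2122 and 1248 against 647 and 529 CPM (log2 fold change -1.52, adjusted p = 0.0067) and H2-D1 at 4104 and 3363 against 1459 and 1312 CPM (log2 fold change -1.43, adjusted p = 7.22e-05). Isg15, a ubiquitin-like interferon product, was at 153 and 220.4 against 65.9 and 40.8 CPM (log2 fold change -1.81, adjusted p = 0.0236) and Rtp4 at 229.9 and 143 against 58.6 and 31.1 CPM (log2 fold change -2.06, adjusted p = 0.088). The MHC class I heavy chain genes are near-identical copies, so that their reads may be split among them.

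The targets of ATF4, the transcription factor of the amino acid and integrated stress response, were for the most part higher. Of 25 tested members, which include the tRNA synthetases, 23 were higher and 0 lower, and the median log2 fold change was 2.47. All 25 had both 24 h samples above both 0 h samples, against 3949 of all 15138 genes tested. Atf4 itself was at 183 and 119.5 against 599 and 519 CPM (log2 fold change 1.88, SE 0.29, adjusted p = 0.000509). Asns, asparagine synthetase, was at 0 and 4.02 against 111 and 109 CPM (log2 fold change 6.03, SE 1.23, adjusted p = 0.00496). Psat1, of serine synthesis, was at 1.00 and 6.53 against 196 and 328 CPM (log2 fold change 6.28, SE 0.87, adjusted p = 0.000171). Phgdh, the enzyme of the first step in that pathway, was at 0 and 0 against 31.97 and 19.3 CPM (at least 17.01-fold higher, adjusted p = 0.016). Chac1, which degrades glutathione, was at 0.752 and 2.51 against 37.8 and 81.4 CPM (log2 fold change 5.35, adjusted p = 5e-05). The amino acid transporter Slc7a5 was at 5.27 and 2.01 against 92.05 and 139 CPM (log2 fold change 4.90, adjusted p = 2.79e-06). Aars, the alanyl-tRNA synthetase, was at 0 and 0 against 290.1 and 454 CPM (at least 247-fold higher, adjusted p = 0.000405), a bound that holds only if the 0 counts at 0 h are real, since cells in general need this enzyme. The 2 members without a call were Psph and Mars (log2 fold changes 1.87 and 2.52, adjusted p = 0.317 and 0.234).

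ATF4 binds with a C/EBP partner to TGATGNAA. The element was found on either strand in 9 of 20 matched promoters (45.0%), against 4.06% of all windows, and all 9 genes were called higher: Asns, Trib3, Chac1, Slc7a11, Aars, Gars, Iars, Tars and Yars. The list was put together from targets of ATF4, so a high share can come from that choice. With 23 of 25 tested members called higher, the calls do not set these 9 apart from the others. The 120 bases before the start site are shown for the 5 with a match inside them, in capitals, since 23 of the 25 tested members rose:
Asns, chr6:7693210-7693329, minus strand: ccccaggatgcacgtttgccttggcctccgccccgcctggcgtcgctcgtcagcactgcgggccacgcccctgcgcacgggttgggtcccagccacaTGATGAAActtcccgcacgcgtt
Slc7a11, chr3:50443614-50443733, minus strand: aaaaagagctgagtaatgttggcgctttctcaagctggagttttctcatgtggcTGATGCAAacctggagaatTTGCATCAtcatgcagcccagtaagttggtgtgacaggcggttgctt
Aars, chr8:111033722-111033841, plus strand: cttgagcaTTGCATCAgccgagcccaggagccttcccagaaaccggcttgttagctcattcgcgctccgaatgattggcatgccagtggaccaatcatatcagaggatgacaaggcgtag
Gars, chr6:55037881-55038000, plus strand: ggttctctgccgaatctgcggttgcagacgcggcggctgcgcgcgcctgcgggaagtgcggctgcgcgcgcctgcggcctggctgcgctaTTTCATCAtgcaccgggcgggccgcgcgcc
Tars, chr15:11399659-11399778, minus strand: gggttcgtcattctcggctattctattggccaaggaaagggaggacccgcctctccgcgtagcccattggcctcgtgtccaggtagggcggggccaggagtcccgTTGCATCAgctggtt
The element begins 23 bases before the start in Asns, 112 in Aars, 30 in Gars and 15 in Tars. Slc7a11, the cystine carrier, holds it on both strands, 66 and 47 bases before the start (0.251 and 2.51 against 28.8 and 42.8 CPM, log2 fold change 4.80, adjusted p = 0.0594). Gars rose from 26.1 and 42.2 to 181 and 179.7 CPM (log2 fold change 2.41, adjusted p = 0.000198) and Tars from 62.4 and 90.4 to 265 and 358 CPM (log2 fold change 2.03, adjusted p = 0.000171).

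Of 19 chaperones of the endoplasmic reticulum tested, edgeR called 0 higher (3 had an unadjusted p below 0.05 in either direction) and 1 lower, calreticulin (Calr) (947 and 916 against 403 and 512 CPM, log2 fold change -1.03, adjusted p = 0.0362), with a median log2 fold change of 0.03. Hspa5, the main chaperone BiP, was at 746 and 1296 against 1310.1 and 2450.0 CPM (log2 fold change 0.88, adjusted p = 0.237) and Hsp90b1 at 906 and 864 against 413 and 789.7 CPM (log2 fold change -0.56, adjusted p = 0.451). Heat shock chaperones rose in 6 of 16 cases and fell in 0 (median log2 fold change 1.04). Hspa9, the mitochondrial HSP70, was at 111 and 107 against 542 and 814 CPM (log2 fold change 2.63, SE 0.29, adjusted p = 1.94e-05) and Hsp90aa1 at 311 and 315 against 1046 and 1352 CPM (log2 fold change 1.94, adjusted p = 0.00013). Hspd1 and Hspe1, the chaperonin of mitochondria, were called as well (log2 fold changes 1.91 and 1.53, adjusted p = 0.000711 and 0.00561). Hspa1a and Hspa8, of the cytosol, had overlapping samples and no call (adjusted p = 0.552 and 0.983). Hspa1a has a near-identical copy, Hspa1b, with which it may share reads.

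Targets of NRF2, the factor of the oxidative stress response, were higher in 7 of 18 cases and lower in 0 (median log2 fold change 0.84). Hmox1, haem oxygenase, was at 25.6 and 40.2 against 542 and 633 CPM (log2 fold change 4.17, SE 0.38, adjusted p = 2.79e-06). Taldo1, of the pentose phosphate pathway, was at 99.3 and 206 against 2004 and 1646 CPM (log2 fold change 3.58, SE 0.36, adjusted p = 7.8e-06). Gclm, a subunit of the rate-limiting enzyme of glutathione synthesis, was at 17.8 and 8.03 against 140.3 and 157 CPM (log2 fold change 3.50, SE 0.51, adjusted p = 0.000262). Nqo1 was at 0 and 0 against 12.2 and 11.1 CPM, at least 7.73-fold higher, without a call (adjusted p = 0.194). The antioxidant response motif TGACNNNGC was present in 38.5% of 13 matched promoters against 12.5% of all windows, and 2 of its 5 bearers (Gclm and Srxn1) were called.

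Ribosome biogenesis genes rose in 15 of 22 cases and fell in 0 (median log2 fold change 2.30). All 22 had both 24 h samples above both 0 h samples, against 3949 of all 15138 genes tested. Ncl, nucleolin of the nucleolus, was at 306 and 322 against 1761 and 2383 CPM (log2 fold change 2.72, SE 0.21, adjusted p = 6.15e-07). Nop16 was at 14.8 and 8.54 against 74.2 and 102 CPM (log2 fold change 2.90, SE 0.44, adjusted p = 0.000354), and Rrp9 at 1.00 and 0 against 65.01 and 21.2 CPM (log2 fold change 6.09, adjusted p = 0.0324). Myc, a transcription factor known to drive ribosome production, was at 15.04 and 24.6 against 53.6 and 102 CPM and was not called (log2 fold change 1.98, SE 0.79, adjusted p = 0.173). Its motif, the E-box CACGTG, was in 23.5% of 17 promoters against 7.24% of all windows, with 2 of the 4 bearers called. By the same measure 28 of 31 proteasome subunits lay above both 0 h samples. Proteasome subunits were called higher in 9 of 31 cases and lower in 0. The count was 6 under RLE size factors and 17 under library size, and from 4 to 6 without one of the samples. Psmd3 was at 53.9 and 65.8 against 265 and 167 CPM (log2 fold change 1.86, adjusted p = 0.00268) and Psmd14, a deubiquitinase of the lid, at 36.1 and 47.7 against 94.8 and 124 CPM (log2 fold change 1.39, adjusted p = 0.0856). Psma1, of the core, was at 59.7 and 54.2 against 81.3 and 81.5 CPM and was not called (log2 fold change 0.51, adjusted p = 0.479). Psmc4, listed at 0 in both 0 h samples although other subunits were detected there, was at 0 and 0 against 99.98 and 74.3 CPM (at least 57.8-fold higher, adjusted p = 0.0421).

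Of 17 tested glycolysis genes 8 were higher and 0 lower (median log2 fold change 1.11). Slc2a1, the glucose carrier GLUT1, was at 9.78 and 13.1 against 74.02 and 93.1 CPM (log2 fold change 2.88, SE 0.49, adjusted p = 0.00107) and Slc16a1, a lactate carrier, at 2.01 and 2.51 against 17.4 and 26.7 CPM (log2 fold change 3.28, adjusted p = 0.00267). Pgk1 rose from 30.1 and 23.1 to 106 and 114 CPM (log2 fold change 2.05, adjusted p = 0.00308), while Ldha was at 128 and 179.8 against 217 and 175 CPM and was not called (log2 fold change 0.35, adjusted p = 0.559). Cholesterol synthesis showed 1 call of 22, near the 5.65% of all genes called higher. The called gene, Sqle, squalene epoxidase, was at 0 and 0 against 22.7 and 21.6 CPM (at least 14.7-fold higher, adjusted p = 0.0326). The sterol motif TCACNCCAC occurred in 1 of 15 promoters, that of Hmgcs1.

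Of 22 tested genes of DNA replication and mitosis, edgeR called 0, with 5 at an unadjusted p below 0.05, and DESeq2 called 2. Mki67, a marker of cycling cells, was at 6.52 and 0 against 0 and 0 CPM, and Ccnd1, the cyclin of G1 entry, at 133 and 199.8 against 203 and 285 CPM (log2 fold change 0.56, adjusted p = 0.465). Inhibitors of the cell cycle and p53 targets were higher in 8 of 18 cases and lower in 0 (median log2 fold change 2.37 with genes at 0 at their bound). Cdkn1a, the inhibitor p21, was at 74.2 and 59.3 against 2019 and 1559 CPM (log2 fold change 4.74, SE 0.36, adjusted p = 6.15e-07). Mdm2, the ligase that degrades p53 and is itself its target, was at 80.99 and 63.3 against 342 and 347 CPM (log2 fold change 2.25, SE 0.24, adjusted p = 1.51e-05). Phlda3 was at 27.1 and 20.1 against 266 and 179 CPM (log2 fold change 3.23, SE 0.56, adjusted p = 0.00123). Ccng1, Zmat3, Aen and Gdf15 were the others with a signal at 0 h (log2 fold changes 2.44, 2.79, 3.08 and 2.97, adjusted p = 0.000335, 0.00102, 0.000345 and 0.0675). Cdkn2b, at 0 and 0 against 1.502 and 4.63 CPM, was close to the floor (mean at least 2.03-fold higher, adjusted p = 0.00963). Its 24 h M1 value lay below the 0 h floor of 1.506 CPM, so the bound does not hold for that sample alone. Bax, Bbc3 and Eda2r, further targets, were not called (adjusted p = 0.216, 0.445 and 0.205).

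Of 17 tested clock genes 1 was higher, Nr1d2 (29.8 and 22.6 against 75.7 and 69.03 CPM, log2 fold change 1.46, adjusted p = 0.0383), and 1 lower, Bhlhe40 (448 and 171 against 6.44 and 9.38 CPM, log2 fold change -5.28, adjusted p = 0.00889). Both shares were near the 5.65% higher and 3.86% lower of all genes tested. Arntl, the clock factor BMAL1, was at 64.2 and 42.7 against 4.51 and 17.1 CPM and was not called (adjusted p = 0.368). Of 20 lysosomal genes 3 were lower, the cathepsins Ctsa and Ctsl and prosaposin Psap, and 1 higher, the autophagy receptor Sqstm1 (log2 fold changes -1.82, -1.19, -1.51 and 1.30, adjusted p = 0.00601, 0.0309, 0.00526 and 0.00298). The share called higher, 5%, was near the 5.65% of all genes tested, and the share called lower was 15% against 3.86%. Ctsd (185 and 185 against 159 and 62.5 CPM) and Lamp1 (450.3 and 431 against 391 and 316 CPM) were not called.

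Of called genes averaging 50 CPM or more in the 4 samples, the 8 largest rises in fitted fold change were those of Aars, Edn1, Ppme1, Gtse1, Supt16, Psat1, Ankrd1 and Asns. Ppme1, a phosphatase methylesterase, was at 0 and 0 against 177 and 181 CPM (at least 119-fold higher, adjusted p = 1.35e-08). Gtse1, a microtubule protein of the cell cycle, was at 0 and 0 against 139.7 and 180.2 CPM (at least 106-fold higher, adjusted p = 0.0551). Supt16, a histone chaperone, was at 0 and 0 against 132 and 179 CPM (at least 103-fold higher, adjusted p = 4.95e-08). In all, 107 of the 856 higher genes had 0 counts in both 0 h samples, and 91 of the 584 lower genes 0 counts in both 24 h samples. The 8 largest falls in fitted fold change were those of Fgb, Mup2, Wfdc1, Fabp1, Ngfr, Angptl6, Mat1a and Mup7. Fitted values of genes at 0 counts in one timepoint depend on the prior count, so the rule gives no order of measured folds, and the fall of Fos, which kept counts at 24 h, is not smaller than the bounds below. Fgb, of fibrinogen, was at 257 and 671 against 0 and 0 CPM (at least 721-fold lower, adjusted p = 0.0138). Fabp1, which binds fatty acids, was at 141 and 645 against 0 and 0 CPM (at least 610.3-fold lower, adjusted p = 0.0224). Mat1a, which makes S-adenosylmethionine, was at 118 and 331 against 0 and 0 CPM (at least 349-fold lower, adjusted p = 0.0252). All 3 are transcripts of hepatocytes. So are Mup2 (387 and 455 against 0 and 0 CPM, at least 654-fold lower, adjusted p = 0.0486) and Mup7 (229.9 and 218 against 0 and 0 CPM, at least 348-fold lower, adjusted p = 0.0123), major urinary proteins whose near-identical copies may share reads. Wfdc1, a secreted protease inhibitor, was at 438 and 372 against 0 and 0 CPM (at least 629-fold lower, adjusted p = 0.00211). Of the 16 genes, 13 had 0 counts in both samples of one timepoint, and for Aars, Ppme1, Supt16 and the proteasome subunit Psmc4, which cells in general need, 0 counts cannot be read as absence and the bounds hold only if the 0 counts are real. Of 12 alternatives, Gtse1 was called in 7, Fabp1 and Mat1a in 10 and Mup7 in 11. DESeq2 gave no adjusted p for Mup2 and Fgb, which were called in 6 and 9 of the other 11.

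Summed levels of the marker lists of other liver cells were lower at 24 h, with 6 hepatocyte, 5 macrophage, 1 endothelial and 1 portal fibroblast or smooth muscle marker called lower and 0 leukocyte and 0 cholangiocyte markers called. The summed level of 10 hepatocyte markers was 4101 and 8113 CPM at 0 h against 58.1 and 81.4 CPM at 24 h, with 6 of 10 called lower. Alb was at 1813 and 4447 against 35.6 and 35.5 CPM (log2 fold change -6.46, adjusted p = 0.0234). Summed levels of 12 Kupffer cell and macrophage markers were 578 and 482 CPM at 0 h and 39.9 and 14.9 CPM at 24 h, with 5 of 11 tested called lower and Marco at 0 in all 4 samples. Sinusoidal endothelial markers summed to 1326 and 880.2 CPM and to 508 and 179 CPM, with 1 of 12 called. Some endothelial markers had a higher mean at 24 h without a call, among them Cdh5 (28.1 and 40.7 against 227 and 80.99 CPM, log2 fold change 2.16, adjusted p = 0.386), Pecam1 (28.1 and 20.6 against 59 and 14.1 CPM, log2 fold change 0.58, adjusted p = 0.884) and Lyve1 (0 and 0 against 7.29 and 0 CPM). Leukocyte markers, 5 of 8 of them at 0, reached 179 and 18.6 CPM at 0 h and at most 1.29 CPM at 24 h. Cholangiocyte markers reached at most 19.1 CPM, with Krt19, Krt7, Epcam and Cftr at 0 in the 4 samples, and portal fibroblast and smooth muscle markers 108 and 90.4 CPM at 0 h against 21.2 and 10.3 CPM at 24 h. The part of these other cell types in the other falls and in the rises was not tested. The 10 stellate markers themselves summed to 33129 and 29039 CPM at 0 h and 1995 and 2009 CPM at 24 h. Of the 10, 9 were called lower and desmin was not called. These sums stood above those of the markers of every other cell type in all 4 samples. Most of each stellate sum was Dcn, at 20177 and 18182 CPM at 0 h and 1286 and 1099 CPM at 24 h. Mitochondrially encoded genes fell as well, from 88127 and 79374 CPM to 17326 and 17208 CPM summed over 9 genes, all 9 called lower.

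**Figure D4:**
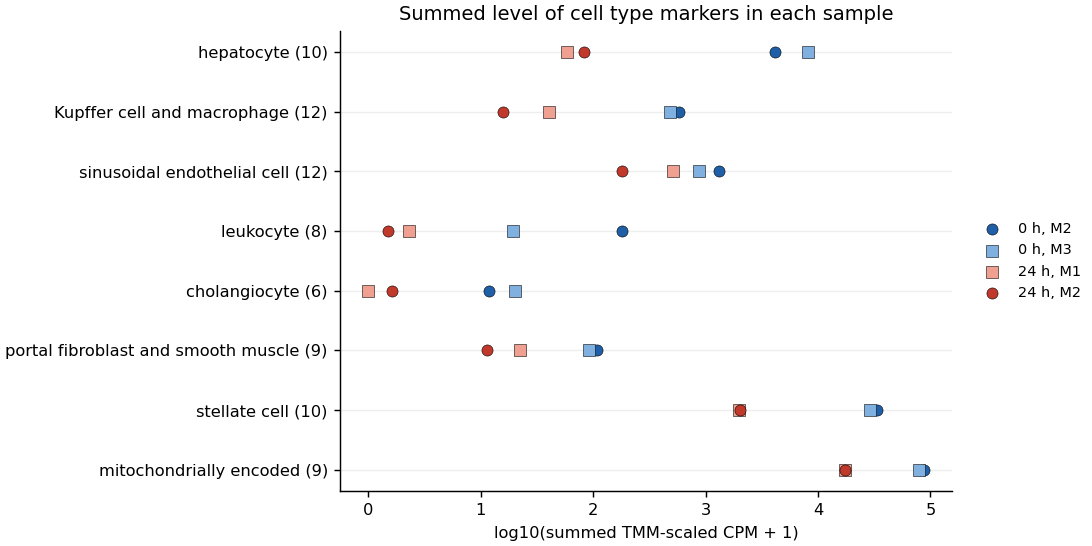
The x axis gives the summed level of each marker list (genes in the table in brackets) as log10(CPM + 1), with 1 point per sample (circles M2, squares M3 at 0 h and M1 at 24 h; blue 0 h, red 24 h). Hepatocyte markers lay at 4101 and 8113 CPM at 0 h and below 100 CPM at 24 h, and stellate markers at 33129 and 29039 CPM against 1995 and 2009 CPM.

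Members of the gene programs that the study defined were counted in the same way. Over all genes tested, 5.65% were higher and 3.86% lower. Of 142 tested genes of its fibrogenic program of activated HSCs, 57 were higher (40.1%) and 2 lower at 24 h (median log2 fold change 1.51 with genes at 0 at their bound). Of 72 tested genes of the initiatory program 62 were higher (86.1%) and 0 lower (median 3.79, likewise). This list was in part chosen on the 6 h and 12 h samples of the same cultures against the same 0 h samples, so its direction is no independent evidence. The study reports genes that belong to both programs, so these counts are not separate results. Another list holds genes higher in HSCs of healthy mice than after CCl4 injury and after recovery. Of its 657 tested members, 126 were lower (19.2%) and 7 higher (1.07%), with a median of -1.12.

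The 24 h samples were also compared with the neighbouring culture times, 18 h and 96 h (3 samples each), and these comparisons share the 24 h samples with the one against 0 h. Of 15138 genes, 6 were called at 24 h against 18 h, 2 higher (0.0132%) and 4 lower (0.0264%), although 1027 had an unadjusted p below 0.05. DESeq2 called 241, a fit of only these 5 samples 0, and the fit with the sample number as a block 2. Col14a1 (171 ± 35.1 CPM (SD, n = 3) at 18 h) was below 18 h and 96 h. Sar1a, a GTPase of secretory vesicles, was at 93.5 and 23.6 against 30.5 and 37.5 CPM. Its level was 212 ± 37.2 CPM (SD, n = 3) at 18 h, and at 96 h it was 157 ± 25.1 CPM (SD, n = 3). Bud13 (22.1 and 14.6 against 0 and 0 CPM, 11.4 ± 5.97 CPM (SD, n = 3) at 18 h) was lower than at 18 h as well. Aard and Mxra8 were at 0 counts in all 3 samples at 18 h and at 97.3 and 126 against 6.44 and 5.53 CPM and 387 and 401 against 19.95 and 17.1 CPM, respectively, at 0 h and 24 h.

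At 24 h against 96 h, 204 genes were higher (1.35%) and 207 lower (1.37%). Higher at 24 h than at 96 h were 10 of 24 chemokines and inflammatory mediators, 8 of 22 ribosome biogenesis genes, 7 of 20 interferon and MHC genes, 6 of 25 ATF4 targets and 5 of 22 immediate early genes. At 96 h, Ccl2 stood at 83.8 ± 7.23 CPM (SD, n = 3) (log2 fold change of 24 h over 96 h 3.49, adjusted p = 1.71e-05). Ncl stood at 698 ± 105 CPM (SD, n = 3) (log2 fold change of 24 h over 96 h 1.57, adjusted p = 0.00013). Atf4 was at 224 ± 37.8 CPM (SD, n = 3) at that time (log2 fold change of 24 h over 96 h 1.32, adjusted p = 0.0102), and B2m at 799 ± 354 CPM (SD, n = 3) (log2 fold change of 24 h over 96 h 1.15, adjusted p = 0.0639). Lower at 24 h were 5 of 16 collagens, 4 of 25 contractile genes, 4 of 17 glycolysis genes, 4 of 18 matrix proteases and inhibitors, 4 of 18 non-collagen matrix genes and 2 of 14 vitamin A genes. Of the vitamin A genes, Aldh1a1 stood at 815 ± 109.9 CPM (SD, n = 3) at 96 h (log2 fold change of 24 h over 96 h -3.97, adjusted p = 0.000738). Plin2 of the lipid droplets stood at 266 ± 32.7 CPM (SD, n = 3) (log2 fold change of 24 h over 96 h -2.37, adjusted p = 0.0206). Lrat, at 31.95 ± 3.53 CPM (SD, n = 3), was not called against 96 h (adjusted p = 0.522).

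**Figure D5:**
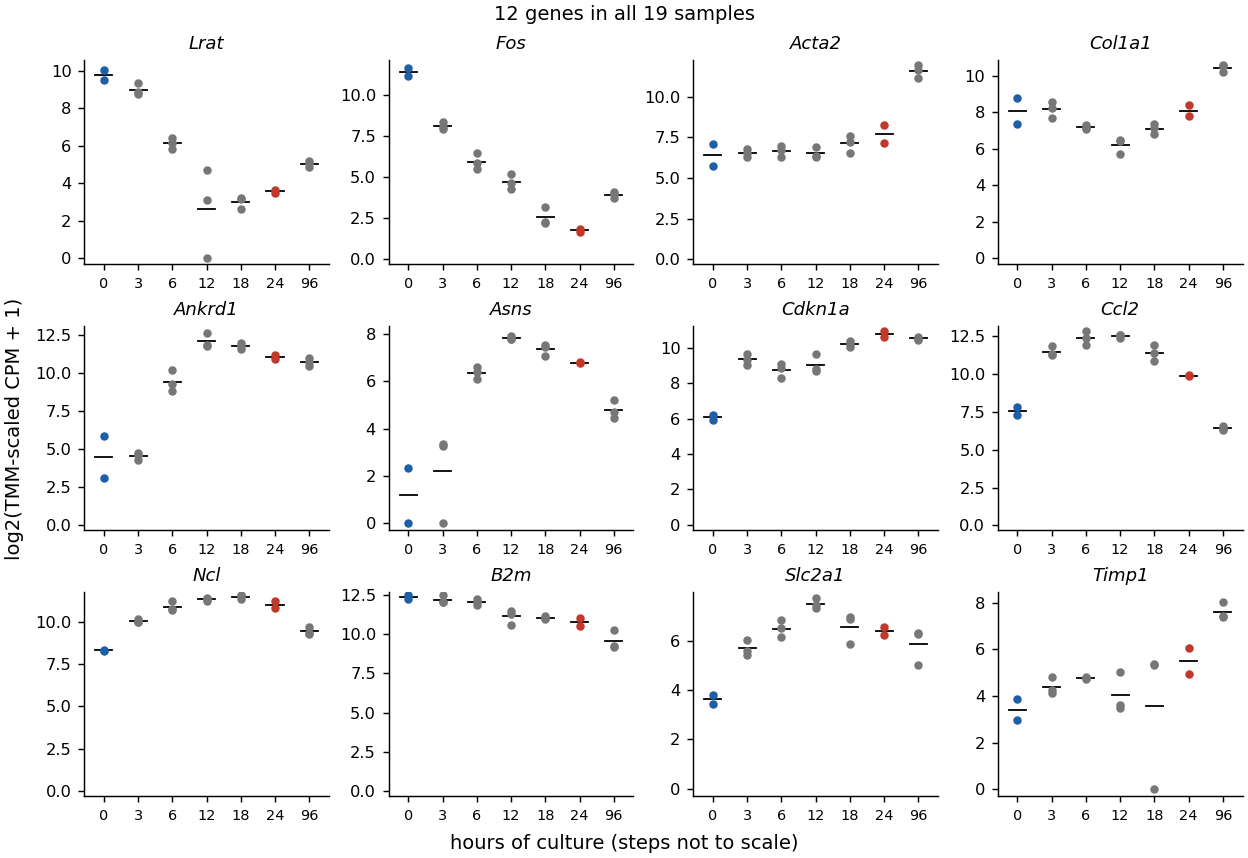
Levels of 12 genes in all 19 samples, as log2(CPM + 1), are plotted against the hours of culture (0 h blue, 24 h red, other times grey, bars at the means of the plotted values). The mean of Fos was lowest at 24 h, those of Ccl2 and Asns were highest at 12 h, that of Cdkn1a was highest at 24 h, and Acta2 and Col1a1 were higher at 96 h than at 24 h.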

How the data were processed

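HSC libraries of 19 samples were read at transcript 3′ ends, and the deposited table holds the authors' whole counts per gene, not normalized. The submitters' processing notes name STAR, StringTie and mm10, and the counting tool is not given in the sources used here. Rows were named by gene ID (55141 of 55487 with a symbol). Genes passing filterByExpr of edgeR 4.0.16 (R 4.3.3) were TMM-scaled and fitted with the quasi-likelihood test in 1 model of all 19 samples with group as the only term. Calls needed more than a 2-fold change and, after Benjamini-Hochberg adjustment over all 15138 genes, a p under 0.1. The standard error is the log2 fold change divided by the square root of F.

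Alternatives were RLE size factors, library size, no filter, DESeq2 1.42.0, the groups compared only, a replicate block, isolation date as a covariate, thinning to the smallest total, an adjusted p below 0.05, and leaving out each sample. Isolation dates and sample numbers come from the labels, and 0 h and 24 h share only number 2. Residuals of samples with the same number correlated at 0.0143 on average (51 pairs), from -0.0720 to 0.0821.

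The comparison, the gene lists and the marker lists were chosen with earlier results of these data known. Named were the 8 largest rises and falls in fitted fold change among called genes of at least 50 CPM without overlap of the groups, the first 2 members and the 2 most changed called members of each list, and genes that differed from both 18 h and 96 h. Other genes were named after their values had been seen. Some genes that the rule names are not reported here. In simulated counts the test recovered 15 of 100 genes changed 4-fold and 35 of 100 changed 8-fold among 14207 genes, with 0 false calls. These counts were drawn from the spread that the same model had fitted, so the 0 false calls are no check on the real data. Far fewer genes were changed than were called here, so the recovery need not carry over. Real changes can be missed at this sample number. Promoters are RefSeq windows of GRCm38.p6. Totals per sample were 2073171 to 7690892 counts, and floors of 3 counts cover counting error only.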

Additional observations from a re-analysis of the deposited data

How the results depend on the processing

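Of 84 called genes named by rule, 51 kept the call under every alternative, 33 lost it under at least 1, and 0 changed sign. Of 754 counts of list members under alternatives, 662 lay within 1.5 times the value reported. The 856 genes higher at 24 h than at 0 h numbered 589 to 735 without one of the samples, and the 584 lower genes 309 to 443, with 309 without 24 h M2, 353 without 24 h M1 and 363 without 0 h M2. DESeq2 called 1223 genes lower and the fit of only both groups 1065. With the replicate block, 807 were higher and 533 lower. Of 24 h against 18 h, the 6 calls became 241 with DESeq2, 0 with only both groups, 2 with the replicate block and 7 to 24 without one sample (7 without 24 h M2, 17 without 24 h M1, 13 to 24 without an 18 h sample). Of 24 h against 96 h, the 411 calls became 887 with DESeq2, 643 with only both groups, 273 at an adjusted p below 0.05 and 124 to 347 without one sample, with 124 without 24 h M2 and 270 without 24 h M1. The block changed no other count by over 1.5 times among these. 5 uncalled genes changed sign. The log2 fold change of Col1a1 was 0.12 with library size and 0.19 with the replicate block. Without one sample it ranged from -0.71 to 0.78, that of Hspa8 from -0.37 to 0.16 (0.20 with library size), that of Lox from -0.13 to 1.15 and that of Hspa1a from -0.12 to 1.84. That of Pnpla2 ranged from -0.19 to 11.08, the latter with the only 0 h sample left at 0 counts and so without meaning beyond its sign. The cause was not tested. In the shallowest 0 h sample, with 2073171 counts, levels under 1.51 CPM could not be shown.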

Other observations

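2 families of the translation machinery were looked at after their values had been seen. Of 86 tested genes for cytosolic ribosomal proteins, 53 were called higher and 1, Rpl22l1, lower, against 5.65% and 3.86% of all genes, and 84 had a log2 fold change above 0, with a median of 1.15. Their summed level was 37941 and 36805 CPM at 0 h against 87006 and 68339 CPM at 24 h. The count of higher genes was 32 with RLE size factors, 33 with DESeq2, 70 with library size and 51 with the replicate block. Many ribosomal protein genes have processed copies in the genome, with which they may share reads. Of 53 tested translation initiation factors, 22 were called higher (17 with RLE size factors) and 1, Eif4e3, lower (median log2 fold change 1.06), with sums of 6752 and 6370.1 CPM at 0 h against 12837 and 14510 CPM at 24 h.

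Complement genes, likewise chosen after their values were seen, were lower in 8 of 15 tested cases and higher in 0. Over all genes tested, 3.86% were lower and 5.65% higher. The complement sums were 2191 and 2229 CPM at 0 h and 170.4 and 142 CPM at 24 h. C1qb and C1qc, which are among the 8, are also markers of Kupffer cells and macrophages, whose marker sum went from 578 and 482 CPM to 39.9 and 14.9 CPM. Hepatocytes express many complement genes too, and their marker sum went from 4101 and 8113 CPM to 58.1 and 81.4 CPM. The part of either in the complement calls was not tested.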
